A study of Mus musculus with 12 samples.

Results

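The genes that carry the leukaemia inhibitory factor (LIF) signal were followed in mouse embryonic stem cells by total RNA sequencing. They were chosen by name, as Lifr, Il6st, Jak1, Jak2, Stat3, Socs3 and Bcl3, and all 7 were found among 39179 genes counted in 12 libraries and passed the filter on low counts in every test. The sorted reporter cells were BRE-GFP, in which a BMP response element (BRE) drives GFP, on a mixed CBA, C57Bl/6 background, grown in fetal calf serum (FCS) with Lif on feeders. Sorting by SSEA1, a surface antigen of these cells, and by GFP gave 3 BRE-positive and 3 BRE-negative libraries, taken as pairs on 3 occasions. The knockout cells were Smad1/5 -/- (KO, 4 libraries) and their controls Smad1/5 fl/fl (FL, 2 libraries), both on a mixed CD-1, 129/Ola, C57Bl/6 background and grown in 2i with Lif on gelatin. SMAD1 and SMAD5 are the transcription factors that bone morphogenetic proteins (BMP) activate, and 2i is a pair of inhibitors of the kinases MEK and GSK3. The KO and FL libraries came from 2 parental lines, each giving 1 FL and 2 KO libraries, and the labels do not say which library came from which line. All 12 cultures held LIF, so no comparison here sets LIF against its absence.

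LIF binds the receptor LIFR, which pairs with gp130, the product of Il6st. The kinases JAK1 and JAK2, bound to the receptor tails, phosphorylate gp130 and the transcription factor STAT3, which then enters the nucleus. In mouse embryonic stem cells STAT3 holds up self-renewal through targets such as Klf4 and Tfcp2l1. It also switches on Socs3, whose product binds gp130 and JAK and shuts the signal down, and Bcl3, which encodes a nuclear protein of the IκB family that binds NF-κB subunits.

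The promoters of Socs3 and Lifr are shown because Socs3 was the one gene of the 7 to pass the test between the reporter fractions, and Lifr rose with Stat3 in serum. The sequences are from RefSeq (GRCm38.p6), run 5′ to 3′ on the gene's strand, and stop short of annotated exons. Capitals mark TTCNNNGAA, the letters of a STAT site, and GGCGCC, a GC-rich element that SMAD proteins of the BMP pathway can bind. The Socs3 stretch is chr11:117969452-117969616 on the minus strand, 86 to 250 bases before the RefSeq start. The Lifr stretch is chr15:7129322-7129558 on the plus strand, 14 to 250 bases before the first of the Lifr starts in the RefSeq table. GENCODE M21 starts both genes farther upstream, so both stretches lie within the span it gives the gene, and distances hold for the RefSeq starts.
Socs3: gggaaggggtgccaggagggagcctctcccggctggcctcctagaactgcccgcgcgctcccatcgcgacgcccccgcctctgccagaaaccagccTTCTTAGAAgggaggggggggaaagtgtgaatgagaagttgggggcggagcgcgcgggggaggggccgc
Lifr: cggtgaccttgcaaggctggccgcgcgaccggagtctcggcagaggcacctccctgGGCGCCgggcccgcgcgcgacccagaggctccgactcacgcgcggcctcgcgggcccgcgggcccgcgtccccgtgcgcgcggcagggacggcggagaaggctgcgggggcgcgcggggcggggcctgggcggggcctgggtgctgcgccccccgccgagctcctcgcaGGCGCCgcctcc
Both strands were searched over the 250 bases before each start, and the motifs are palindromes that share no base here. TTCNNNGAA stood in the Socs3 promoter only, as TTCTTAGAA, 154 to 146 bases before the start. It was present in 7.02% of 32851 mouse promoters. GGCGCC stood before the first Lifr start but not before the downstream one. It also stood in the promoters of Jak1, Bcl3 and, nearer to the start than the stretch shown, Socs3, and was present in 9.59% of promoters. The windows with GGCGCC held 61.2% to 82.4% G and C, and those of the 7 genes without it 50.8% to 80.8%. The share over all promoters was not matched for this content. Such a match is a description of letters and does not show that a factor binds.

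Library totals were between 25862573 and 37319846 counts. Smad1, the first targeted gene, was at 14.5, 17.5, 13.5 and 12.3 CPM (counts scaled to a common library size) in KO, against 19.0 and 18.2 CPM in FL libraries. Smad5 was at 29.9, 25.2, 32.5 and 34.5 CPM in KO, against 33.6 and 31.5 CPM in FL libraries. Neither passed the test (edgeR adjusted p = 0.187 and 0.719), and the sources used here do not name the deleted exons, so whole-gene counts do not check the KO label. The summed level of 10 embryonic stem cell markers was 4228 to 4410 CPM in BRE-positive, 4226 to 4755 in BRE-negative, 4245 to 5288 in KO and 5158 to 5265 in FL libraries. The sum does not show single markers. At an edgeR adjusted p under 0.05, none of 10 differed between the reporter fractions. Between KO and FL 1 of 9 tested was higher and 1 lower, where 5.03% of all genes passed. Between reporter and FL libraries 3 of 10 were higher and 3 lower, where 52.4% of all genes passed. The summed level of 15 feeder fibroblast markers was 96.1 to 199.8 CPM in BRE-positive, 132 to 236 in BRE-negative, 14.3 to 16.8 in KO and 18.8 to 23.5 in FL libraries. In bulk RNA, fewer cells of a type and less RNA per cell cannot be told apart.

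Compared per length, in TPM, a unit scaled by transcript length and library size, Socs3 was the most abundant of the 7 transcripts in every group and Jak2 the least. Socs3 had 83.3 ± 6.0 TPM in BRE-positive (SD, n = 3), 94.6 ± 8.8 in BRE-negative (n = 3), 60.6 ± 11.5 in KO (n = 4) and 60.8 ± 19.6 TPM in FL cells (n = 2). Jak2 had 4.68 ± 0.34 TPM in BRE-positive, 4.58 ± 0.45 in BRE-negative, 6.50 ± 0.80 in KO and 7.40 ± 1.42 TPM in FL cells. The transcript of the feedback inhibitor stood above those of the receptor and kinases in all 12 libraries. Lifr came second, with 39.4 ± 6.8 TPM in BRE-positive, 36.5 ± 7.0 in BRE-negative, 27.8 ± 4.2 in KO and 21.2 ± 0.9 TPM in FL cells. In the reporter cells Stat3 (20.0 ± 0.8 TPM in BRE-positive, 19.5 ± 0.1 in BRE-negative), Il6st (18.9 ± 1.5 TPM in BRE-positive, 17.2 ± 1.7 in BRE-negative) and Jak1 (17.4 ± 1.5 TPM in BRE-positive, 16.3 ± 1.3 in BRE-negative) followed. In BRE-positive cells the ranges of Stat3 and Il6st and those of Il6st and Jak1 overlapped, and in BRE-negative cells those of Il6st and Jak1 did. The order differed in 2i, where Il6st came next after Lifr, its range overlapping that of Lifr in both genotypes, with 21.8 ± 1.1 TPM in KO and 20.8 ± 0.4 in FL cells. Stat3 stood at 13.3 ± 1.4 TPM in KO and 11.2 ± 1.2 in FL cells, below Jak1 (15.4 ± 0.9 TPM) and Bcl3 (14.2 ± 0.03 TPM) in FL cells. In KO cells neighbouring ranges of Stat3, Jak1 (12.2 ± 1.3 TPM), Bcl3 (9.78 ± 2.24 TPM) and Jak2 overlapped.

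**Figure D1:**
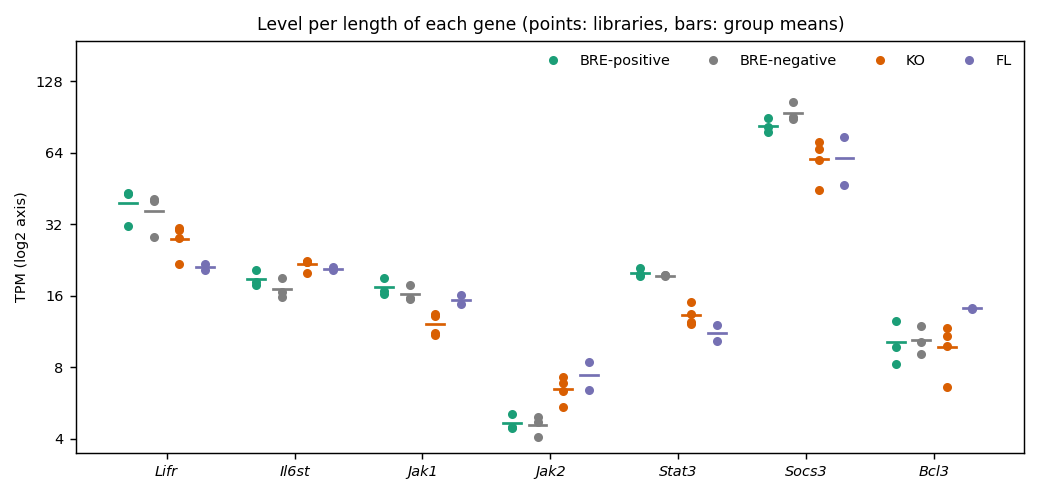
Levels of the 7 genes in TPM (log axis) in the 4 groups, 1 point per library with a bar at the mean. Socs3 is the highest in each group (60.6 to 94.6 TPM on average) and Jak2 the lowest (4.58 to 7.40 TPM).

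Taken library by library, the receptor genes were on separate courses. Lifr, the LIF-binding chain, spans 106.9 kb on chromosome 15 (GRCm38, 7090614 to 7197489, plus strand). Lifr was at 146, 171 and 168 CPM in BRE-positive replicates 1, 2 and 3, against 134, 175 and 178 CPM in BRE-negative replicates 1, 2 and 3. Lifr was at 129, 102, 129.8 and 130.3 CPM in KO replicates 1 to 4, against 95.3 and 88.2 CPM in FL replicates 1 and 2. Every serum library lay above every 2i library, the first reporter pair lay below the other pairs, and KO replicate 2 lay close to FL. Il6st, the shared signalling chain gp130 (chromosome 13, 112464070 to 112510086, plus strand), was at 129.8, 113 and 127 CPM in BRE-positive and 118, 115 and 131 CPM in BRE-negative libraries. Il6st was at 164, 148, 149.7 and 148 CPM in KO, against 142 and 143 CPM in FL libraries. The order was the reverse of Lifr between the cultures: each 2i library lay above each serum library.

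The kinase genes differed in level and in course. Jak1 (chromosome 4, 101152367 to 101265282, minus strand) was at 61.3, 53.6 and 60.4 CPM in BRE-positive and 60.2, 54.9 and 62.5 CPM in BRE-negative libraries. Jak1 was at 50.1, 50.2, 37.7 and 38.2 CPM in KO, against 56.9 and 51.4 CPM in FL libraries. KO replicates 3 and 4 were the low pair, with KO replicates 1 and 2 just under the lower FL library. Jak2 (chromosome 19, 29251828 to 29313080, plus strand) was at 8.77, 7.35 and 8.30 CPM in BRE-positive and 8.08, 8.66 and 8.98 CPM in BRE-negative libraries. Jak2 was at 10.5, 14.4, 12.3 and 11.3 CPM in KO, against 11.7 and 15.2 CPM in FL libraries. Replicate 2 was the high one in both KO and FL, though the labels do not pair KO and FL libraries by number. KO and FL overlapped, while all serum libraries were below all 2i libraries.

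Stat3, the transcription factor (chromosome 11, 100885098 to 100939540, minus strand), was at 128, 111 and 117 CPM in BRE-positive and 132, 122 and 120.3 CPM in BRE-negative libraries. Stat3 was at 99.8, 81.3, 75.6 and 81.0 CPM in KO, against 75.6 and 63.5 CPM in FL libraries. Serum and 2i did not overlap, and the lowest KO and the higher FL library were nearly equal. The annotated exons of Stat3 share 72 bases, 0.756% of its exon length, with Stat5a on the other strand, which was at 2.81 to 13.4 CPM. Jak1 shares 4 exonic bases with Raver2 and Bcl3 161 bases with Gm16175, also on the other strand. Without the strand setting, counts from shared bases cannot be told apart.

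Of the feedback and target genes, Socs3 is compact, with 3.97 kb on chromosome 11 (117966079 to 117970047, minus strand). Socs3 was at 115, 88.4 and 83.8 CPM in BRE-positive replicates 1, 2 and 3, against 136, 109 and 106 CPM in BRE-negative replicates 1, 2 and 3. Socs3 was at 89.9, 57.7, 70.2 and 77.4 CPM in KO, against 89.8 and 55.5 CPM in FL libraries. The BRE-positive library was below its partner in each of the 3 pairs, although the fractions overlapped because the first pair was high in both, and KO and FL overlapped across nearly their whole range. Bcl3 (chromosome 7, 19808462 to 19822770, minus strand) was at 14.5, 18.6 and 14.4 CPM in BRE-positive and 16.3, 19.7 and 16.8 CPM in BRE-negative libraries. Bcl3 was at 17.2, 11.7, 17.5 and 18.7 CPM in KO, against 23.5 and 23.0 CPM in FL libraries. It was lower in the BRE-positive library of each pair, and all 4 KO libraries lay below both FL libraries.

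**Figure D2:**
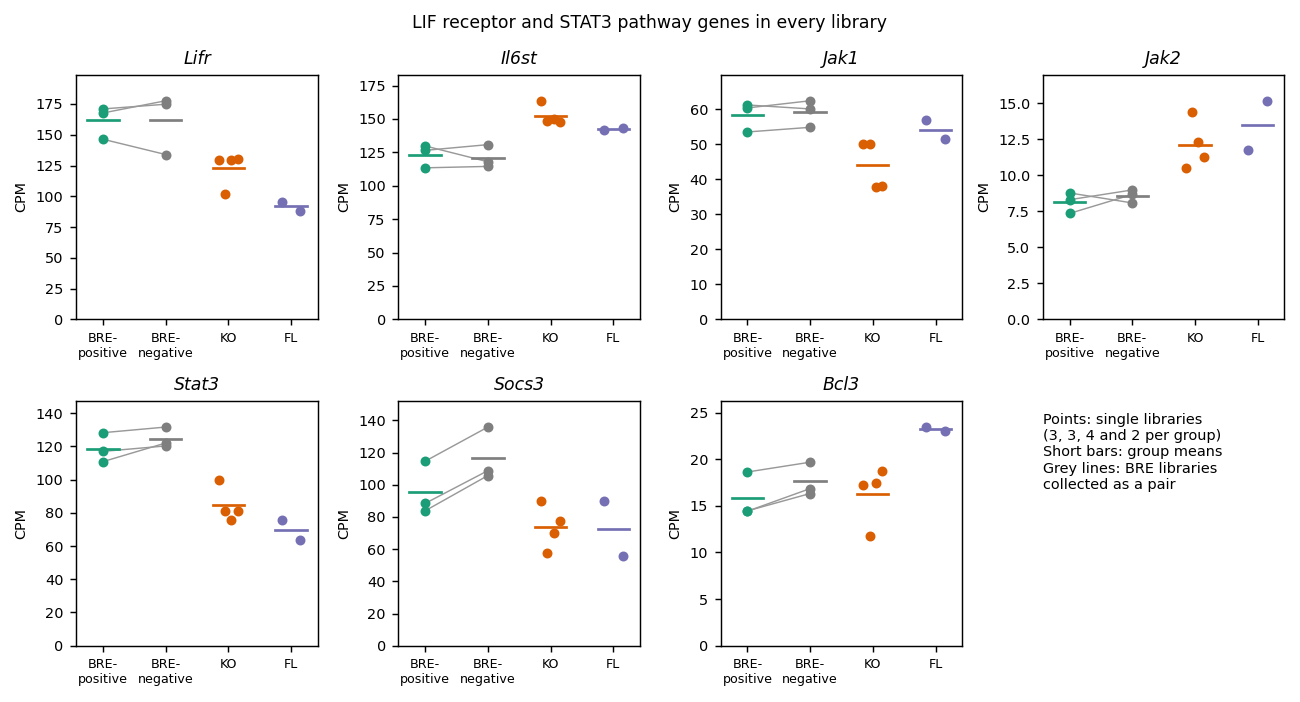
CPM of each of the 7 genes by library (1 panel per gene, each axis from 0), with groups from left to right BRE-positive, BRE-negative, KO and FL, short bars at group means and grey lines joining the libraries of a pair. Lifr and Stat3 are higher in every reporter library than in every FL library, and Socs3 is high in the first reporter pair (115 and 136 CPM).

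BRE-positive against BRE-negative cells asks whether cells with an active BMP reporter differ in this pathway. The receptor, kinase and Stat3 genes had log2 differences of -0.06 to 0.05, none past the threshold, and Socs3, the feedback inhibitor, fell by 0.27 ± 0.05 on the log2 scale (SE; edgeR with the pair as a block, adjusted p = 0.0128), to 95.6 ± 16.6 CPM in BRE-positive against 116.8 ± 16.6 CPM in BRE-negative cells (SD, n = 3 each). The ratio of the pair's libraries was -0.25, -0.30 and -0.33 (log2) in pairs 1, 2 and 3. One of the 7 genes therefore passed, where 2.97% of the 15435 genes tested did (1.96% higher and 1.02% lower). In a fit without the block Socs3 kept its size (-0.27) but not its call (edgeR adjusted p = 0.9996), and without pair 3 its adjusted p was 0.180. With limma on log2(TPM + 1) the Socs3 difference was -0.18, with an adjusted p of 0.257. In that limma fit the genes of the main test had a median log2 difference of 0.068, against -0.00088 in the main edgeR fit. The 2 Socs3 differences are therefore not on the same baseline.

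The other 6 did not pass between the fractions (edgeR adjusted p between 0.366 and 0.995). Their 95% intervals come from the same edgeR fit, are not adjusted for the number of genes, and hold for these libraries. Lifr differed by 0.02 (-0.09 to 0.14), Il6st by 0.05 (-0.07 to 0.16) and Jak1 by 0.00099 (-0.12 to 0.12) on the log2 scale. Jak2 differed by -0.06 (-0.28 to 0.16), Stat3 by -0.05 (-0.17 to 0.06) and Bcl3 by -0.14 (-0.30 to 0.03). Bcl3 and Stat3, like Socs3, were lower in 3 of 3 pairs, as were 23.8% of all genes tested. Within each pair the sums of feeder markers and of 10 immediate early genes were lower in the BRE-positive library, as Socs3 was. Across pairs the feeder sum ran the other way from Socs3. It was lowest in pair 1 (96.1 CPM in BRE-positive, 132 in BRE-negative), where Socs3 was highest. The immediate early sum was 561 to 780 CPM in BRE-positive and 643 to 854 CPM in BRE-negative libraries, and was highest in pair 1. Of these lists, 4 of 15 feeder genes (Acta2 -1.12, Tagln -0.57 and Col1a2 -0.48 the largest by log2) and 3 of 10 immediate early genes (Egr2 -0.58, Jun -0.34, Ier2 -0.22) fell and none rose in edgeR at an adjusted p under 0.05. With a pair left out Tagln passed in 2 of 3 fits and Ier2 in 1 of 3. DESeq2 called 2 in each list and limma none, and their part in the Socs3 result was not tested.

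KO against FL cells asks what loss of SMAD1 and SMAD5 does to the pathway in 2i. None of the 7 genes passed edgeR at an adjusted p under 0.05, where 5.03% of 15933 genes tested did (1.85% higher and 3.18% lower). At an unadjusted p under 0.05 in edgeR there were 2 of the 7, where 3646 of all 15933 genes tested had such a p. DESeq2 called 1 of the 7, beside 653 higher and 845 lower among all 15933 genes. With limma on log2(TPM + 1) none of the 7 was called, beside 29 higher and 164 lower among 38310 genes. Lifr came nearest, with 122.9 ± 13.8 CPM in KO (SD, n = 4) and 91.7 ± 5.0 CPM in FL cells (n = 2), a difference of 0.42 ± 0.11 (log2, SE; 95% interval 0.16 to 0.68, edgeR adjusted p = 0.0742). It passed with DESeq2 (adjusted p = 0.0197), without the count filter (edgeR, adjusted p = 0.0371) and without KO replicate 2 (edgeR, adjusted p = 0.0210), so the side of the threshold depended on these choices. Bcl3 averaged 16.3 ± 3.1 CPM in KO and 23.2 ± 0.3 CPM in FL cells, a difference of -0.51 ± 0.18 (log2; -0.92 to -0.10, edgeR adjusted p = 0.139).

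The transducers in between showed differences in both directions, none past the threshold. Stat3 averaged 84.4 ± 10.6 CPM in KO and 69.5 ± 8.5 in FL cells, a log2 difference of 0.28 (95% interval -0.0021 to 0.56, edgeR adjusted p = 0.221). Jak1 averaged 44.0 ± 7.0 CPM in KO and 54.2 ± 3.9 in FL cells, a log2 difference of -0.30 (-0.61 to 0.02, edgeR adjusted p = 0.242). Il6st differed by 0.10 (-0.05 to 0.25) and Jak2 by -0.15 (-0.53 to 0.23). KO and FL libraries did not overlap for Lifr, Il6st, Jak1, Stat3 and Bcl3, 5 of 7, where 34.5% of all genes tested did not overlap. Socs3, the gene called between the reporter fractions with the pair as a block, averaged 73.8 ± 13.5 CPM in KO and 72.6 ± 24.2 CPM in FL cells. Its log2 difference of 0.02 had an interval of -0.47 to 0.52, wide enough to hold a fall of the size seen in BRE-positive cells. Whether the Socs3 effect differed between the experiments was not tested. With 2 FL libraries the result leans on each: without FL replicate 1 no gene of the whole table passed (1948 had an unadjusted p under 0.05), and without FL replicate 2 the count was 142 in place of 801. It was 236 without KO replicate 3 and 215 without KO replicate 4. The 801 calls were 294 higher and 507 lower, against 29 and 164 with limma on log2(TPM + 1).

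**Figure D3:**
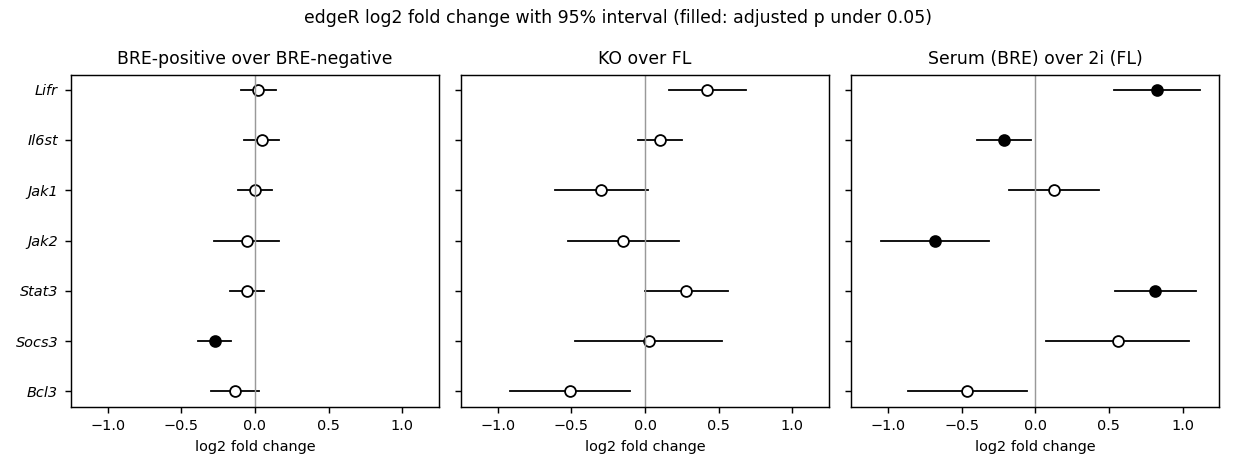
Log2 fold changes of the 7 genes with 95% intervals in the 3 comparisons (edgeR), filled where the adjusted p is under 0.05. Socs3 is the one called gene between BRE-positive and BRE-negative cells, none is called between KO and FL, and Lifr and Stat3 lie near 0.8 between serum and 2i.

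The 3 reporter collections (both sorted fractions summed) against the FL libraries set serum and LIF on feeders beside 2i and LIF on gelatin. Cell line, strain, reporter, sorting and feeders differ along with the medium, and cannot be told apart. The FL libraries are also those of the KO comparison. Lifr and Stat3 rose and Jak2 fell in serum. Lifr averaged 161.9 ± 17.6 CPM in the 6 reporter libraries and 91.7 ± 5.0 CPM in the 2 FL libraries (SD), a log2 difference of 0.83 ± 0.13 (SE; edgeR adjusted p = 0.000425). Stat3 averaged 121.7 ± 7.5 CPM in reporter and 69.5 ± 8.5 CPM in FL libraries, a log2 difference of 0.82 ± 0.13 (edgeR adjusted p = 0.000322). Both passed under each of the 18 alternatives, Lifr with values of 0.62 to 0.93 and Stat3 with 0.65 to 0.96. Jak2 averaged 8.36 ± 0.59 CPM in reporter and 13.5 ± 2.4 CPM in FL libraries, a log2 difference of -0.68 ± 0.17 (edgeR adjusted p = 0.0055). Without FL replicate 2 the difference in Jak2 was -0.48 and its edgeR adjusted p 0.0850.

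The other 4 genes lay near the threshold or well inside it. Il6st averaged 122.2 ± 7.8 CPM in reporter and 142.5 ± 1.1 CPM in FL libraries, a log2 difference of -0.21 ± 0.08 that just passed (edgeR adjusted p = 0.0482) and passed in 4 of 18 alternatives. Socs3 averaged 106.2 ± 18.8 CPM in reporter and 72.6 ± 24.2 CPM in FL libraries, a log2 difference of 0.56 ± 0.22 that just missed (edgeR adjusted p = 0.0522) and passed in 9 of 18. Without FL replicate 1 its difference was 0.97 (edgeR adjusted p = 0.0106) and without FL replicate 2 it was 0.26 (edgeR adjusted p = 0.404). Bcl3 averaged 16.7 ± 2.1 CPM in reporter and 23.2 ± 0.3 CPM in FL libraries, a log2 difference of -0.46 ± 0.18 (edgeR adjusted p = 0.0551). Against the mean of FL and KO the Bcl3 difference was -0.20 (edgeR adjusted p = 0.261). Jak1 differed by 0.13 (95% interval -0.18 to 0.43). In all, 4 of 7 genes passed, 2 in each direction, and 5 did not overlap between the groups. Among all 16963 genes tested, 52.4% passed (25.1% higher and 27.3% lower) and 60.0% did not overlap, so these shares are near those of any gene.

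Beyond the 7 genes, the rest of the pathway was counted in lists of ligands, receptors, JAK and STAT genes, inhibitors, side branches and targets. Between BRE-positive and BRE-negative cells edgeR called none of 6 gp130 ligand genes (of 10 listed, the others too low to test), 5 co-receptors, 8 other JAK and STAT genes, 14 negative regulators, 12 genes of the ERK and PI3K branches, 16 STAT3 targets and 9 NF-κB genes at an adjusted p under 0.05. At an unadjusted p under 0.05 the numbers in that order were 0, 0, 1, 1, 3, 7 and 2. Of all 15435 genes tested, 2817 had such a p. DESeq2 and limma called none of the list genes. Without pair 1, edgeR called 6 STAT3 targets lower, and 3 ERK and PI3K genes lower and 2 higher. It also called 1 gene higher among the ligands, the other JAK and STAT genes and the NF-κB genes each. In that fit 1115 of all 15441 genes tested passed as higher and 1110 as lower. With no count filter edgeR called 3 STAT3 targets and 1 ERK and PI3K gene lower, beside 476 of all 25125 genes. The 16 STAT3 targets had a median log2 difference of -0.10, where the median of all genes tested was -0.00088. Klf4, a pluripotency factor downstream of STAT3, averaged 437 ± 49 CPM in BRE-positive and 443 ± 93 CPM in BRE-negative cells (SD, n = 3 each). Pim1, a kinase gene induced by STAT3, averaged 83.8 ± 10.1 CPM in BRE-positive and 96.3 ± 9.6 CPM in BRE-negative cells, a log2 difference of -0.18 (edgeR adjusted p = 0.0854). Klf4, Pim1, Tfcp2l1 and Lif are named for their place in the pathway, after their values were seen.

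Between KO and FL cells the calls were few. Socs2, a relative of Socs3, rose by 0.66 ± 0.07 (log2, SE; edgeR adjusted p = 0.00774), to 94.8 CPM on average in KO against 59.9 CPM in FL cells, and was the 1 call among 14 negative regulators. Its adjusted p was 0.0759 without FL replicate 1 in edgeR, and 0.0931 with limma on log2(TPM + 1). Osm, the gene of the related cytokine oncostatin M, was at 20.7, 18.6, 19.2 and 18.4 CPM in KO, against 14.6 and 13.4 CPM in FL libraries. Its log2 difference was 0.45 ± 0.10 (edgeR adjusted p = 0.0493), the 1 call among 5 ligand genes, and it passed in 0 of 6 fits with a library left out. Of 16 STAT3 targets, the growth regulator Myc rose by 1.26 ± 0.28 (edgeR adjusted p = 0.0442). Ier3, an early response gene, fell by 1.64 ± 0.37 (edgeR adjusted p = 0.0461), with 4.83, 5.54, 2.73 and 3.30 CPM in KO against 17.9 and 7.62 CPM in FL libraries. Without FL replicate 1 the Ier3 difference was -0.89, and without FL replicate 2 it was -2.14. The survival gene Mcl1 fell by 0.44 ± 0.07 (edgeR adjusted p = 0.0193). With a library left out, Myc and Ier3 passed in 1 of 6 fits each and Mcl1 in 2 of 6. The list's median was -0.08, against 0.01 for all genes tested. No call was made by edgeR among 4 co-receptors, 8 other JAK and STAT genes, 12 ERK and PI3K genes and 9 NF-κB genes. Their counts at an unadjusted p under 0.05 were 1, 1, 4 and 2, where 3646 of all 15933 genes tested had such a p. DESeq2 called 1 in the ERK and PI3K list, and limma called none. The ligand gene Lif itself was at 7.90 CPM on average in KO and 5.73 CPM in FL cells (edgeR adjusted p = 0.402).

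Between serum and 2i the counts of the lists stand beside the 25.1% of all genes that rose and the 27.3% that fell, and none of them was tested against these shares. Of 16 STAT3 targets 11 rose and 2 fell, with a median log2 difference of 0.94 against -0.02 for all genes. Fos (5.36 ± 0.41), Junb (2.51 ± 0.15) and Myc (2.41 ± 0.33) had the largest rises, and all 3 are also growth-factor-induced genes. Klf4 rose by 2.01 ± 0.16 (edgeR adjusted p = 3.69e-06), to 440.1 ± 66.7 CPM in reporter against 110.0 ± 13.9 CPM in FL libraries, and Tfcp2l1 rose by 0.86 ± 0.14 (edgeR adjusted p = 0.000425). All 10 immediate early genes rose too, among them Fos, Junb and Zfp36, which are in both lists. The feeder markers rose in 14 of 15 cases, with a summed level of at least 96.1 CPM in every reporter library and at most 23.5 CPM in the FL libraries, and their part in these results was not tested.

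Osm had the largest fall of the ligand genes between serum and 2i. It had 3 to 15 counts in each reporter library (0.10 to 0.42 CPM), against 495 and 492 counts in the FL libraries (14.6 and 13.4 CPM). The log2 difference of -5.74 ± 0.17 (edgeR adjusted p = 3.46e-09) kept its call in all 18 alternatives, with values of -5.96 to -3.44. Its receptor gene Osmr ran the other way: 28 to 59 counts in each reporter library against 0 in both FL libraries, at least 33.9-fold higher by mean CPM when FL is set at 3 counts over the group. KO libraries, in the same 2i medium, held 0 to 3 Osmr counts and 558 to 696 Osm counts. Cntfr, the CNTF receptor gene, rose by 2.04 ± 0.22 and Il6ra, the interleukin 6 receptor gene, fell by 2.18 ± 0.36 (edgeR adjusted p = 3.09e-05 and 0.000533). Of the 8 other JAK and STAT genes 2 rose, among them Stat4 (1.61 ± 0.17), and 4 fell, among them Stat2 (-1.13 ± 0.25). Of the 14 negative regulators 5 rose, with Cish (1.70 ± 0.40) and Socs5 (1.45 ± 0.23) in front, and 2 fell, Ptpn6 (-1.40 ± 0.14) by most. In the ERK and PI3K branches 4 of 12 fell and none rose, led by Pik3r1 (-0.93 ± 0.13) and Grb2 (-0.51 ± 0.10). The 9 NF-κB genes are those of NF-κB subunits and of IκB proteins, the family of BCL3. Of these 5 rose and 2 fell, with Nfkb1 (1.499 ± 0.119) and Rela (1.27 ± 0.16) in front.

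**Figure D4:**
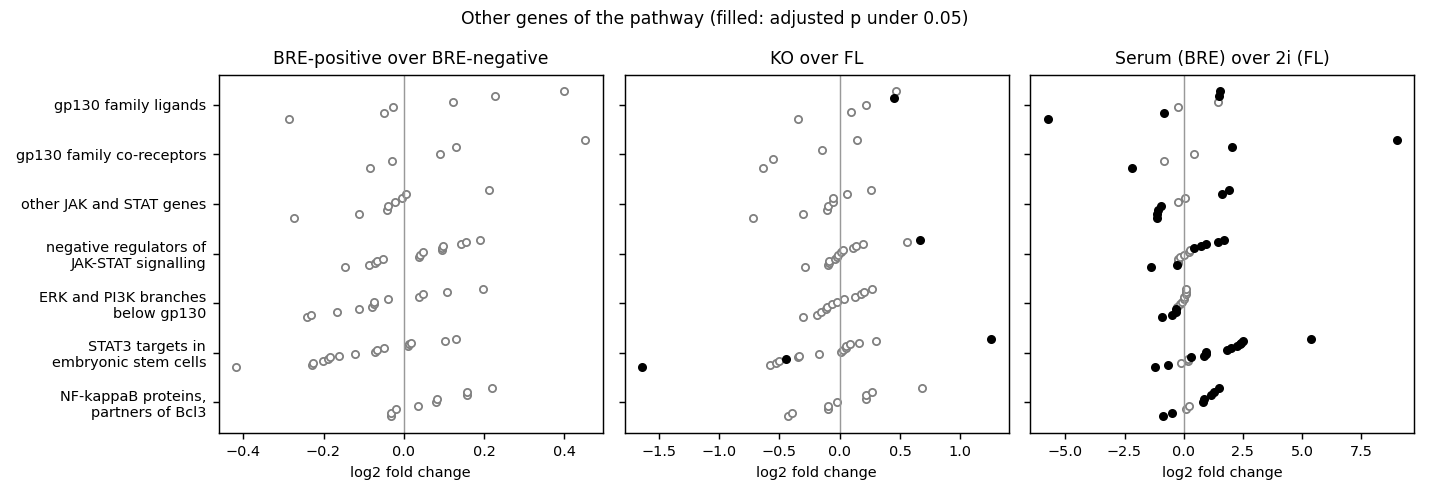
Log2 fold changes (edgeR) of each tested gene of the pathway lists in the 3 comparisons, 1 point per gene, filled where the adjusted p is under 0.05. The horizontal scales differ between panels, the STAT3 targets have medians of -0.10, -0.08 and 0.94, and the far right co-receptor is Osmr, whose fitted value rests on 0 counts in FL.

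The 7 genes did not share 1 pattern across libraries. Pearson correlations of log2 CPM were taken as a description over the 6 reporter libraries and again over the 6 KO and FL libraries, points that share culture and, for the reporter cells, pairs. Socs3 and Stat3 gave 0.91 in the reporter and 0.62 in the KO and FL libraries. Lifr and Stat3 gave -0.78 in the reporter and 0.67 in the KO and FL libraries, and Jak2 and Socs3 gave 0.32 in the reporter and -0.94 in the KO and FL libraries. Among 12509 protein-coding genes tested in both fits, likeness was taken as the lower of the 2 correlations. Lifr was most like Appbp2 (0.97) and Cggbp1 (0.97), Il6st most like Tmem192 (0.90) and Emp2 (0.90), and Jak1 most like Rhoq (0.97) and Mturn (0.96). Jak2 was most like AA474408 (0.92) and Emc2 (0.88), and Stat3 most like Pnkd (0.94) and Ttc23 (0.91). Socs3 was most like Mylip (0.89) and Rpap1 (0.87), and Bcl3 most like Srf (0.95) and S100a6 (0.91). No gene of the 7 was among the 2 genes named for another of them. With only 2 of 12509 genes kept for each, this does not show whether the 7 resemble each other. The named genes are the highest of 12509 on 6 libraries each, and how high unrelated genes would reach was not tested.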

How the data were processed

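Per the labels' protocols, libraries were made from rRNA-depleted total RNA with a kit that keeps the strand. The submitters' processing notes name STAR 2.4.1d and featureCounts 1.4.6, beside CASAVA 1.8.2, DESeq2 1.6.3 and FastQC 0.11.3, with mm10 and GRCm38.p4. The sources used here give neither the annotation release nor the strand setting. The authors deposited raw counts for 39179 genes, used for every test, and a TPM table, a normalised signal used as deposited for levels per length and for limma. Of its 39032 lines, 722 repeat a gene and were used once. Symbols came from that table and coordinates from GENCODE M21.

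Tests used the quasi-likelihood fit of edgeR 4.0.16 in R 4.3.3 after TMM scaling and filterByExpr (at least 10 counts, 15 in all). Genes were called at a Benjamini-Hochberg adjusted p under 0.05 over every gene tested. The BRE fit held the pair as a block, since the series states paired collection; same-numbered libraries deviated together (r = 0.702, 0.566 and 0.505 across genes, others -0.543 to 0.142). The KO fit had no block, as the line of each library is not labelled, and takes the KO libraries of 1 line as independent. In the serum fit, the counts of each reporter pair were summed and KO libraries added only to the estimate of spread. CPM uses TMM-scaled totals of all 12 libraries. Since separate cultures are not described, p-values reflect only how much these libraries vary. Standard errors and intervals follow from the fold change and its F statistic. Alternatives were DESeq2 1.42.0, RLE scaling, other count filters, limma 3.58.1 on log2(TPM + 1) and log2(TPM + 0.1), gene length offsets, other sets of libraries, the block and leaving out each replicate. Scripts were tested on simulated data.

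The members and lists were chosen with earlier results of these data known. Named genes are the 7 members, up to 3 called genes with the largest change per list and comparison, the marker genes, Smad1 and Smad5, and the 2 most alike genes of each member; 1 gene that this rule names is not reported here.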

Additional observations from a re-analysis of the deposited data

Results flagged for a closer look

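In 50 sets of 4 KO values (named genes and list sums), the gap of the highest or lowest library to its nearest neighbour was divided by the range, with Dixon's 95% critical value of 0.829 as the limit. Chance passes about 1 set in 20, and 3 sets passed. Lifr gave 0.967, with KO replicate 2 at 102.2 CPM and the other KO libraries at 129.3 to 130.3 CPM. Il6st gave 0.886, with KO replicate 1 at 163.6 CPM and the others at 147.9 to 149.7 CPM. Tagln, a feeder fibroblast marker, gave 0.908, with KO replicate 3 at 0.359 CPM and the others at 0.226 to 0.238 CPM.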

How the results depend on the processing

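Between BRE-positive and BRE-negative cells 459 genes passed in edgeR. The count was 1010 with no count filter, 299 with length offsets, 0 with each of the 3 limma settings (2406 to 4191 genes at an unadjusted p under 0.05), 0 with no replicate block (343 unadjusted), 0 with all 12 libraries and no replicate block (516 unadjusted), and 200 to 2225 with a pair left out (2225 without pair 1, 200 without pair 3). Of the 7 genes, 1 passed, against 0 under those limma and unblocked fits, and 0 to 1 with a pair left out. Small differences changed sign, with log2 values as follows. Jak1 gave -0.0031 with DESeq2, -0.0030 with RLE scaling, -0.017 with no count filter, -0.023 with length offsets, -0.013 with all 12 libraries and -0.018 to 0.013 with a pair left out. Jak2 gave 0.027, 0.032 and 0.027 and Stat3 0.036, 0.038 and 0.036 in limma, and Jak2 -0.15 to 0.023 with a pair left out. In the 3 limma settings the genes of the main test had medians of 0.068 to 0.087, so these Jak2 and Stat3 values lie below the median gene. With length offsets Lifr gave -0.016 and Il6st -0.038, and with a pair left out -0.034 to 0.064 and -0.0073 to 0.079.

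Between KO and FL cells 801 genes passed, against 1498 with DESeq2, 193, 98 and 149 with limma, and 0 to 857 with a library left out, where a lone FL library is assumed to vary like the rest. The replicate block on KO and FL 1 and 2 gave 0 (2479 unadjusted); same-numbered libraries gave r = 0.247 and -0.405, while KO 2 with FL 1 gave 0.405 and KO 3 and 4 with FL 2 gave 0.392 and 0.340. These values were not used to assign parental lines, so no fit had the line as a term. Of the 7 genes 0 passed, against 1, Lifr, with DESeq2, 1 with no count filter and 0 to 1 with a library left out. Socs3 gave -0.0032 with the filter at 1 CPM and -0.30 to 0.42 with a library left out, and Jak2 -0.31 to 0.029.

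Between serum and 2i 6366 to 10717 genes passed under the alternatives, and 2 to 4 of the 7 with a library left out. The cause of these changes was not tested. The 7 genes had 221 or more counts in each library.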
